A study of Homo sapiens with 6 samples.

Results

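The genes described here are HLA-B, HLA-C, HLA-E, HLA-F, B2M, TAP1, TAP2, PSMB8 and PSMB9, which encode parts of the machinery that presents peptides on MHC class I molecules. They were picked out by symbol, with earlier results of these data known, and are 9 of the 18118 genes counted in the SU-CCS-1 libraries. All 9 were among the 14571 genes that passed a filter on low counts. SU-CCS-1 is an established human clear cell sarcoma (CCS) cell line, and CCS is driven by EWSR1::ATF1 (EA1), a fusion of EWSR1 with the DNA-binding part of the transcription factor ATF1. The libraries compare these cells with EA1 left in place and with EA1 knocked down by RNA interference.

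Polyadenylated RNA was sequenced 48 h after transfection with 5 pmol of siRNA. Of the 6 libraries, 2 received the negative control siRNA siNeg1, labelled as a scramble control, 2 received siEA1-1 and 2 received siEA1-2, both directed against EA1. All 3 groups share the cell line, its fusion and the transfection, no untransfected library was analysed here, and a single line cannot stand for CCS in general. The study's methods name 1 siRNA against EA1, whereas the labels list 2, and nothing says that libraries of a group came from separate cultures. P-values therefore measure only the spread between these libraries, which may be technical. Gene counts summed to between 5942808 and 7599305 per library, at which 3 counts, the level taken as a floor, correspond to 0.395 to 0.505 CPM (counts scaled to the library total), covering counting error only.

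ATF1, a partner gene of the fusion, was lower in every knockdown library than in control. Its counts take in the fusion as well as the unrearranged gene and stood at 82.2 and 87.4 CPM in control, 21.2 and 20.3 with siEA1-1 and 21.7 and 22.3 with siEA1-2 (averaged log2FC -1.99, SE 0.10). EWSR1, the other partner, whose counts are mixed in the same way, stood at 198 and 233 CPM in control and 195 to 221 CPM after knockdown and did not pass the test (averaged log2FC -0.08, padj = 0.538). All 7 melanocytic markers of CCS were measured, and their summed level was 2748 to 3005 CPM in control, 7997 to 8093 with siEA1-1 and 7378 to 11966 with siEA1-2. Of these markers 6 were higher with each EA1 siRNA (padj, edgeR's adjusted p as described below), and the seventh, SOX10, did not pass the test. MLANA, among the 6, had only 4 and 0 counts in control, near the floor, and 11 to 24 after knockdown. Of 10 leukocyte markers only CD68 and LYZ were counted, with a summed level of 2.67 to 6.69 CPM, and the defining marker PTPRC, which encodes CD45, was not analysed here. Of 6 endothelial and fibroblast markers VWF, CDH5 and LUM were counted, and LUM was higher after knockdown (log2FC 3.05, padj = 1.64e-04), so that their summed level was 1.54 to 3.14 CPM in control and 7.74 to 19.6 CPM after knockdown. The part of these marker shifts in the values given below was not tested.

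MHC class I molecules carry short peptides from inside the cell to its surface, where cytotoxic T cells and natural killer cells inspect them. The proteasome cuts proteins into peptides, the TAP1-TAP2 transporter carries these into the endoplasmic reticulum, and chaperones load them onto a heavy chain paired with beta-2 microglobulin, the product of B2M. HLA-B and HLA-C encode classical heavy chains, HLA-E and HLA-F encode non-classical ones, and PSMB8 and PSMB9 encode catalytic subunits that replace their constitutive counterparts in the immunoproteasome. Transcription of these genes is known to respond to interferons through STAT and IRF factors and to the coactivator NLRC5. Promoters of class I heavy chains and of B2M are known for a module of neighbouring boxes bound by RFX, by CREB and ATF family members and by NF-Y, the second of which is the family of ATF1 itself. Loss of this machinery is a known route by which tumors escape T cells.

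Of the 9 genes, 8 lie on chromosome 6 and B2M lies on chromosome 15. The positions here are those of GENCODE release 44 on hg38. HLA-F occupies chr6:29722775-29738528, HLA-E chr6:30489509-30494194, HLA-C chr6:31268749-31272130 and HLA-B chr6:31353872-31367067. Further along the chromosome, TAP2 (chr6:32821833-32838739), PSMB8 (chr6:32840717-32844679), TAP1 (chr6:32845209-32853816) and PSMB9 (chr6:32844136-32859851) lie next to each other in the class II region. The annotated span of PSMB9 takes in that of TAP1 and overlaps that of PSMB8 in part. B2M occupies chr15:44711358-44718851.

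The 250 bases before the start site are shown for HLA-B and HLA-C, classical heavy chains whose windows are alike at most bases, for B2M, the partner of every heavy chain, and for TAP1, TAP2 and PSMB9, the genes among the 9 with both control libraries above all 4 knockdown libraries, a pattern of 27.3% of all genes tested. The sequences were read from RefSeq on GRCh38.p14, 5′ to 3′ on the strand of the gene. RefSeq start sites can lie inside the GENCODE spans given above, as they do for HLA-B and PSMB9. Capitals mark matches, on either strand, to the cyclic AMP response element (CRE) core TGACG, to the IRF core GAAANNGAA or its mirror GAANNGAAA, to the NF-kappaB core GGGNNTTCC, and to the NF-Y box CCAAT. The mirror was added after the sequences had been seen, and overlapping matches run together in 1 block of capitals. The windows are HLA-B chr6:31357180-31357429 (minus strand), HLA-C chr6:31272093-31272342 (minus), B2M chr15:44711267-44711516 (plus), TAP1 chr6:32853705-32853954 (minus), TAP2 chr6:32838740-32838989 (minus) and PSMB9 chr6:32853942-32854191 (plus).
HLA-B: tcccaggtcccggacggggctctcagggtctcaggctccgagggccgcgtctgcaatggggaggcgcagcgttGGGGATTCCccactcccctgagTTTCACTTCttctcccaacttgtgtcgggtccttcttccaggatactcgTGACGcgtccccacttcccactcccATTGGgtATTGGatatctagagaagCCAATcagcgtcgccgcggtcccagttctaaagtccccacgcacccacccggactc
HLA-C: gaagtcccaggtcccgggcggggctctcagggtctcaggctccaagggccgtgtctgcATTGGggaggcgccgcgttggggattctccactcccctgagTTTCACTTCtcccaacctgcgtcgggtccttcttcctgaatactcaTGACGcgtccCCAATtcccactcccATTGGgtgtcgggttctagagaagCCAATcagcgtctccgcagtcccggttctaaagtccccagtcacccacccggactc
B2M: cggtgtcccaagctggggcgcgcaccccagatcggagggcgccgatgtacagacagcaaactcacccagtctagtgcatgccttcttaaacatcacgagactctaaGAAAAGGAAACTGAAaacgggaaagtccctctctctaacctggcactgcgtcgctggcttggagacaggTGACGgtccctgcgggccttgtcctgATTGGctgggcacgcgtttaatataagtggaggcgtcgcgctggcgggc
TAP1: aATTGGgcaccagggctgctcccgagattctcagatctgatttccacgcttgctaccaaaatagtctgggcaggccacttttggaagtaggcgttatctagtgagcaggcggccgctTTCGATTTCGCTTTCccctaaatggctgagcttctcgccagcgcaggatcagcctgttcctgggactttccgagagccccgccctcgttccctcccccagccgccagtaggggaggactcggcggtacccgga
TAP2: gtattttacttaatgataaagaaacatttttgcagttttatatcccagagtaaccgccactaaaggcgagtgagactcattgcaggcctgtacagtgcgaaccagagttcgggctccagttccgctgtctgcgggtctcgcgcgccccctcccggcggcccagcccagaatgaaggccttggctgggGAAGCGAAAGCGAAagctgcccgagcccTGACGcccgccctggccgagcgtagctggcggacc
PSMB9: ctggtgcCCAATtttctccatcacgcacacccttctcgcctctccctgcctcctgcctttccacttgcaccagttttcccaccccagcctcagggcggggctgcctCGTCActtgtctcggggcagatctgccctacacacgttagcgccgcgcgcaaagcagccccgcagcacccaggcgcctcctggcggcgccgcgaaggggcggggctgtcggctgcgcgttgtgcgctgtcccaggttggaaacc

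Windows were found for 8 of the 9 genes, 10 in all because TAP1 and PSMB8 each have 2 start sites. HLA-E was not matched. The CRE core TGACG was in 6 of these 10 windows and in 21.2% of the 35116 windows of all genes, and the full palindrome TGACGTCA was in 0 of the 10 and in 1.65% of all. The CRE core lay 106 to 102 bases before the start in HLA-B and 105 to 101 bases before it in HLA-C. The CCAAT box was in 6 of the 10 windows (32% of all), the IRF core in 4 (6.88% of all), in B2M, HLA-F, TAP1 and TAP2, and its mirror in 3 (6.56% of all), in HLA-B, HLA-C and TAP2. The NF-kappaB core was in 2 windows (5.78% of all), of HLA-B and PSMB8. The AP1 motif TGAGTCA was in 0 of the 10 windows (4.2% of all) and the GC box GGGCGG in 5 (42.6% of all), and the latter is not in capitals above. A match describes the letters in a window and says nothing of binding.

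The HLA-B and HLA-C windows were identical at 226 of 250 bases, whereas HLA-B shared 202 bases with HLA-F and HLA-C shared 201. TAP1 and PSMB9 point away from each other from start sites 488 bases apart, so that their windows share 13 bases. The map of motif matches shows TAP1, TAP2 and B2M with overlapping IRF matches, and HLA-F with NF-Y boxes but no CRE core.

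**Figure D1:**
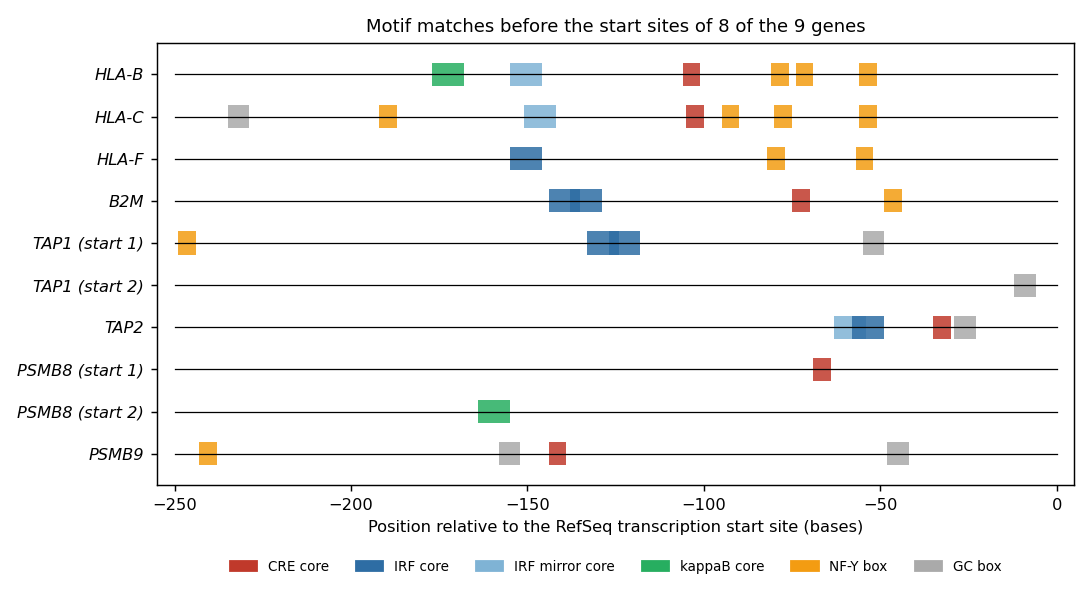
Motif matches in the 250 bases before the RefSeq start sites of 8 of the 9 genes (10 windows), each line a window and each block a match on either strand, with the distance from the start site in bases on the x axis. The CRE core, the IRF mirror and 2 NF-Y boxes of HLA-B and HLA-C start within 4 bases of each other, while 1 further NF-Y box of HLA-B and 2 of HLA-C have no such counterpart, and PSMB8 and TAP1 have 2 start sites each.

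The comparison of each EA1 siRNA with control asks which of these genes changed in CCS cells when EA1 was reduced. Expression is given as CPM normalized by the TMM method, and log2FC is knockdown minus control, so that a negative value stands for lower expression after knockdown. Each log2FC was tested by edgeR's quasi-likelihood test on the counts of all 6 libraries, and padj is its p-value after Benjamini-Hochberg adjustment across 14571 genes. A gene is said to have risen or fallen where padj was under 0.05. Standard errors (SE) were derived from the test. Both contrasts use the same 2 control libraries.

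Over the 9 genes, siEA1-1 gave 1 that rose (HLA-E) and 2 that fell (TAP1, TAP2), while 19.9% of all genes tested rose and 20.3% fell. siEA1-2 gave 0 that rose and 2 that fell (TAP1, PSMB9), against 18.5% and 18.2% of all genes. At an unadjusted p under 0.05, 4 of the 9 passed with siEA1-1 (HLA-C and HLA-E higher, TAP1 and TAP2 lower), beside 48.1% of all genes, and 3 with siEA1-2 (TAP1, PSMB8 and PSMB9, all lower), beside 45.4%. DESeq2 over all 6 libraries called 1 of the 9 with siEA1-2, beside 26.5% of the genes to which it gave an adjusted p. Averaged over both siRNAs 1 rose (HLA-E) and 2 fell (TAP1, TAP2), against 21.5% and 22.1%. The 9 genes were thus called about as often as genes at large, and only individual members are described as changed. Their median log2FC was 0.09 with siEA1-1 and -0.27 with siEA1-2, beside 0.02 and 0.00 over all genes tested. Whereas 3 of the 9 had both control libraries above all 4 knockdown libraries (27.3% of all genes), 0 had them below (28.1% of all genes). In libraries of whole cultures, fewer cells that express a gene and less RNA per cell cannot be told apart.

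The 2 subunits of the peptide transporter were lower in every knockdown library than in either control library. TAP1 and TAP2 encode the 2 chains of the ABC transporter that moves peptides into the endoplasmic reticulum. TAP1 (ENSG00000168394) measured 101 and 83.4 CPM in control, 76.2 and 66.0 with siEA1-1, and 65.0 and 54.8 with siEA1-2. Control lay above both knockdown groups, and the 2 knockdown groups lay close to each other. It fell with siEA1-1 (log2FC -0.37, SE 0.13, padj = 0.0434) and with siEA1-2 (log2FC -0.63, SE 0.14, padj = 0.00365), to 1.55-fold below control in the latter. The call with siEA1-1 was lost without control replicate 1 (log2FC -0.23, padj = 0.320), without siEA1-1 replicate 1 (padj = 0.0647) or without its replicate 2 (padj = 0.232), and the averaged fall (log2FC -0.50, SE 0.11, padj = 0.00395) was lost without control replicate 1 (log2FC -0.36, padj = 0.0872). DESeq2 did not call the fall with siEA1-1 either (padj = 0.0762), while the fall with siEA1-2 was called in every alternative run.

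TAP2 (ENSG00000204267) measured 35.8 and 42.7 CPM in control, 22.0 and 23.5 with siEA1-1, and 29.2 and 33.8 with siEA1-2. Its lowest libraries were thus those of siEA1-1, the reverse of TAP1. It fell 1.72-fold with siEA1-1 (log2FC -0.79, SE 0.16, padj = 0.00207) and did not pass the test with siEA1-2 (log2FC -0.31, SE 0.15, padj = 0.136). The fall with siEA1-1 was called in every alternative, and the averaged fall (log2FC -0.55, SE 0.13, padj = 0.00546) was lost without control replicate 2 (log2FC -0.45, padj = 0.0749). The difference of TAP2 between the EA1 siRNAs was 0.47 (SE 0.16, siEA1-2 minus siEA1-1, padj = 0.166).

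**Figure D2:**
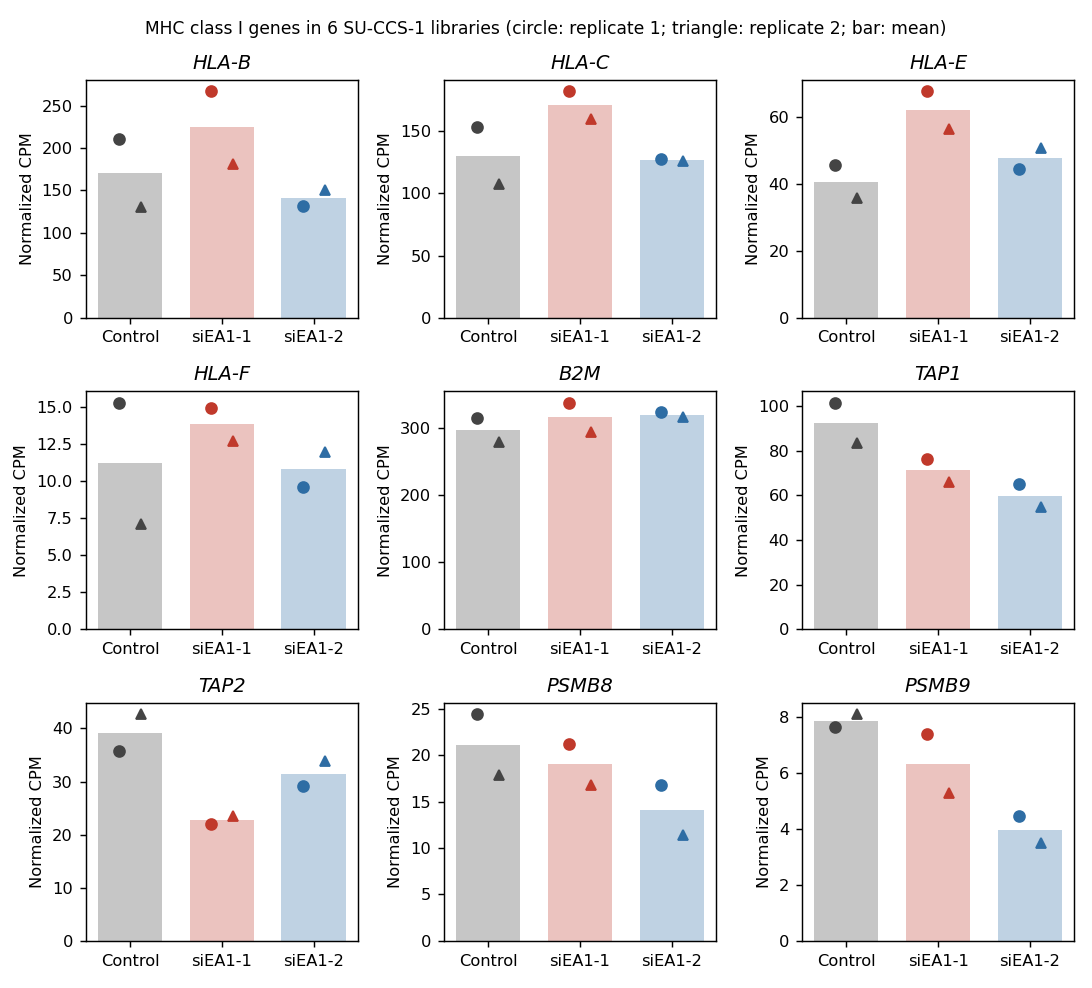
Normalized CPM (y axis, from 0) of the 9 genes in each library, by group on the x axis, with circles for replicate 1, triangles for replicate 2 and bars for the mean of 2 libraries. TAP1, TAP2 and PSMB9 have both control libraries above all 4 knockdown libraries, whereas the heavy chains and B2M overlap between control and knockdown.

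Of the 2 immunoproteasome subunits among the 9 genes, PSMB9 fell with siEA1-2 and PSMB8 did not pass the test. PSMB9 (ENSG00000240065), also known as LMP2, measured 7.63 and 8.10 CPM in control, 7.4 and 5.27 with siEA1-1, and 4.45 and 3.51 with siEA1-2. The latter 2 values rest on 25 counts each. Control libraries were above all knockdown libraries, by a small margin for siEA1-1 replicate 1. PSMB9 fell 1.99-fold with siEA1-2 (log2FC -0.99, SE 0.32, padj = 0.032) and did not pass the test with siEA1-1 (log2FC -0.31, SE 0.31, padj = 0.459). The call was lost without control replicate 1 (padj = 0.0805), without control replicate 2 (padj = 0.106), without siEA1-2 replicate 2 (log2FC -0.85, padj = 0.117), and with DESeq2 over all 6 libraries (padj = 0.111) or the 4 compared (padj = 0.167). The averaged log2FC of -0.65 (SE 0.27, padj = 0.0685) passed the test with the replicate number as a block (log2FC -0.66, padj = 0.0482) and without siEA1-2 replicate 1 (log2FC -0.76, padj = 0.0472).

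PSMB8 (ENSG00000204264), also known as LMP7, measured 24.4 and 17.9 CPM in control, 21.2 and 16.8 with siEA1-1, and 16.7 and 11.4 with siEA1-2. Control overlapped with siEA1-1 and lay above both libraries of siEA1-2. Its log2FC of -0.60 with siEA1-2 (SE 0.24, padj = 0.0726) passed the test with the replicate block (padj = 0.0154), without control replicate 2 (log2FC -0.84, padj = 0.0403) and without siEA1-2 replicate 1 (log2FC -0.91, padj = 0.0143). With siEA1-1 it was -0.15 (SE 0.23, padj = 0.657), and the averaged log2FC of -0.37 (SE 0.20, padj = 0.159) was called without siEA1-2 replicate 1 (log2FC -0.54, padj = 0.0310). Exons of PSMB8-AS1, a non-coding RNA on the other strand, cover 17.3% of the exon length of PSMB8 and 14.2% of that of TAP1. PSMB8-AS1 had 3 to 16 counts per library and did not pass the test (averaged log2FC -0.95, padj = 0.210).

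Because PSMB8, PSMB9 and PSMB10 replace PSMB5, PSMB6 and PSMB7 in the immunoproteasome, their share of the counts of all 6 subunits was computed per library. It was 11.7% (95% exact binomial interval 10.3 to 13.2) and 11.0% (9.66 to 12.4) in control, 12.5% (11.1 to 14.1) and 9.95% (8.48 to 11.6) with siEA1-1, and 8.53% (7.25 to 9.96) and 7.65% (6.48 to 8.96) with siEA1-2. The share was 11.3% ± 0.492 (SD, n = 2) in control, 11.2% ± 1.83 with siEA1-1 and 8.09% ± 0.624 with siEA1-2. Both libraries of siEA1-2 were below both control libraries, and those of siEA1-1 lay on either side of them. The intervals cover counting error only, and those of control replicate 2 and siEA1-2 replicate 1 overlap. With 2 control and 4 knockdown libraries no permutation test can pass the threshold, and none was run. Divided by exon length the shares were 6.40%, 6.39% and 4.98%. None of the constitutive subunits PSMB5, PSMB6 and PSMB7 passed the test in any contrast, and PSMB10 did not either (averaged log2FC 0.27, padj = 0.594). PSMB10 measured 4.19 and 2.44 CPM in control and 4.81 and 4.91 with siEA1-2 (log2FC 0.56, padj = 0.334).

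Among the 4 heavy chains of the 9 genes, HLA-E alone passed the test, and it was higher with siEA1-1. HLA-E (ENSG00000204592) presents peptides from the leader sequences of other class I molecules to the NKG2A receptor of natural killer cells. It measured 45.5 and 35.9 CPM in control, 67.7 and 56.3 with siEA1-1, and 44.5 and 50.7 with siEA1-2. Both libraries of siEA1-1 were above control, whereas those of siEA1-2 overlapped with it. HLA-E rose 1.53-fold with siEA1-1 (log2FC 0.61, SE 0.15, padj = 0.0066) and did not pass the test with siEA1-2 (log2FC 0.23, SE 0.15, padj = 0.263). The rise was lost without control replicate 2 (log2FC 0.42, padj = 0.104) or without siEA1-1 replicate 1 (log2FC 0.47, padj = 0.0872). The averaged rise (log2FC 0.42, SE 0.13, padj = 0.0221) was lost without the same libraries (log2FC 0.23, padj = 0.332, and log2FC 0.35, padj = 0.0824), with DESeq2 (padj = 0.0639) and with the 4 knockdown libraries as 1 group (padj = 0.0713).

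HLA-B (ENSG00000234745) measured 211 and 130.1 CPM in control, 267 and 181 with siEA1-1, and 132 and 151 with siEA1-2. The control libraries differed 1.62-fold from each other, and each EA1 siRNA overlapped with them. The log2FC was 0.40 with siEA1-1 (SE 0.21, padj = 0.159) and -0.27 with siEA1-2 (SE 0.21, padj = 0.362). Which control library was kept decided the call, since without replicate 1 the first became 0.79 (padj = 0.0163) and without replicate 2 the second became -0.61 (padj = 0.0437). Without control replicate 1 the latter turned to 0.12 (padj = 0.719). With the replicate block the first was 0.40 (padj = 0.0474).

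HLA-C (ENSG00000204525) measured 153 and 107 CPM in control, 182 and 159.6 with siEA1-1, and 128 and 126 with siEA1-2. Both libraries of siEA1-1 exceeded control, and both of siEA1-2 lay between the control libraries. The log2FC with siEA1-1 was 0.39 (SE 0.15, padj = 0.0533), and with siEA1-2 it was -0.04 (SE 0.15, padj = 0.868). The former passed the test with the replicate block (log2FC 0.40, padj = 0.0100), with at least 10 counts required in every library (padj = 0.0434), without control replicate 1 (log2FC 0.67, padj = 0.00508) and without siEA1-2 replicate 1 (padj = 0.0298) or replicate 2 (padj = 0.0307). Averaged over the siRNAs it was 0.18 (SE 0.13, padj = 0.295), and 0.46 without control replicate 1 (padj = 0.0224) against -0.09 without control replicate 2 (padj = 0.627).

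HLA-F (ENSG00000204642), a non-classical heavy chain, measured 15.3 and 7.07 CPM in control, 14.9 and 12.7 with siEA1-1, and 9.61 and 11.9 with siEA1-2. All knockdown libraries lay between the 2 control libraries, which differed 2.11-fold. The log2FC was 0.32 (SE 0.32, padj = 0.452) with siEA1-1, with 0.96 without control replicate 1 (padj = 0.0352) and -0.17 without control replicate 2 (padj = 0.681), and -0.03 (SE 0.32, padj = 0.952) with siEA1-2. HLA-F-AS1, a non-coding RNA that covers 12.4% of the exon length of HLA-F from the other strand, rose after knockdown (averaged log2FC 1.68, padj = 4.55e-05), from 8.38 and 9.13 CPM in control to between 20.7 and 32.9 CPM. The study's methods name a stranded library kit, but whether the counting used strand is not given in the sources used here. How reads over the exons shared by the 2 genes were assigned is therefore unknown.

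B2M (ENSG00000166710) was the most abundant of the 9 genes and had the narrowest intervals. Its product is the light chain of every class I molecule described here. It measured 315 and 279.8 CPM in control, 338 and 295 with siEA1-1, and 324 and 316 with siEA1-2. The log2FC was 0.09 (95% interval -0.15 to 0.33, padj = 0.540) with siEA1-1 and 0.11 (-0.13 to 0.35, padj = 0.478) with siEA1-2. Changes within these intervals are thus not excluded at this depth and replication.

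Heavy chains are close paralogs and highly polymorphic, and how reads that fit several of them were counted is not given in the sources used here. The split of reads among HLA-B, HLA-C, HLA-E and HLA-F is therefore uncertain.

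**Figure D3:**
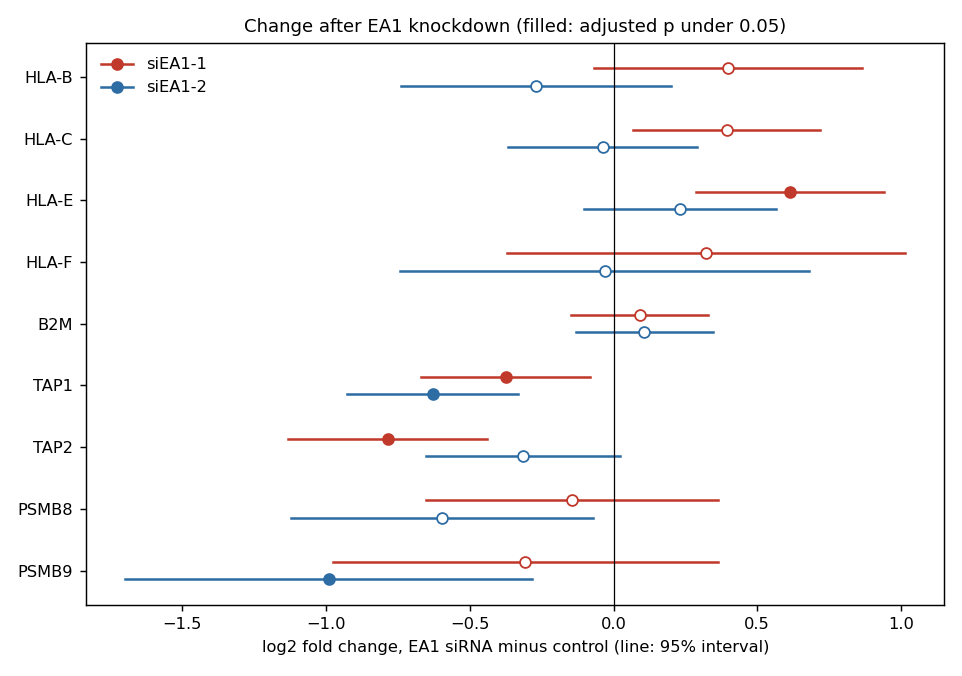
Log2 fold change of the 9 genes (rows) with siEA1-1 (red) and siEA1-2 (blue) against control, with 95% intervals as lines and filled points for an adjusted p under 0.05. TAP1 is filled for both, TAP2 and HLA-E for siEA1-1 and PSMB9 for siEA1-2, and the points of B2M nearly coincide.

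The calls depended on the pairing of replicates. With the replicate number as a block, 5 of the 9 genes were called with siEA1-1 instead of 3, HLA-B and HLA-C being added as higher, while the share of all genes called was 44.5%. In control, replicate 1 exceeded replicate 2 for 7 of the 9 genes, by a log2 difference of 1.08 for HLA-F, 0.70 for HLA-B, 0.52 for HLA-C and 0.44 for PSMB8. The median absolute difference between control replicates was 0.34 for the 9 genes and 0.18 for all genes tested. Between replicates of siEA1-1 it was 0.23 against 0.17, and between those of siEA1-2 0.21 against 0.22.

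The EA1 siRNAs were also compared with each other, which asks whether both gave the same values for a gene. None of the 9 genes passed the test (0 of 9, edgeR), beside 1.44% of all genes that were higher and 0.796% that were lower with siEA1-2. HLA-B (difference -0.67, SE 0.21, padj = 0.138), HLA-C (-0.43, SE 0.15, padj = 0.168), HLA-E (-0.38, SE 0.15, padj = 0.221) and TAP2 (0.47, SE 0.16, padj = 0.166) had an unadjusted p under 0.05, as did 17% of all genes. With the replicate block HLA-B (-0.62, padj = 0.0330) and HLA-C (-0.42, padj = 0.0454) were called, beside 5.85% of all genes. DESeq2 called 0 of the 9 over 6 libraries (5.37% of all genes with an adjusted p) and 1, HLA-B (-0.67, padj = 0.0145), over the 4 compared (3.8%), and gave some of the 9 no adjusted p. HLA-B, HLA-C and HLA-E were higher in both libraries of siEA1-1 than in either library of siEA1-2, and TAP2 was lower in both. For B2M the difference was 0.02 with a 95% interval from -0.22 to 0.25.

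Levels between genes were compared per kilobase of exon. In control, B2M stood at 95.2 ± 7.90 (SD, n = 2) CPM per kilobase, HLA-C at 52.0 ± 13.1, HLA-B at 36.9 ± 12.4, TAP1 at 19.5 ± 2.69, HLA-E at 13.9 ± 2.33, PSMB8 at 6.07 ± 1.33, TAP2 at 3.79 ± 0.472, HLA-F at 2.59 ± 1.34 and PSMB9 at 2.36 ± 0.0988. HLA-C and HLA-B overlapped in their control libraries, as did TAP2 and HLA-F, and HLA-F and PSMB9, whereas the other neighbours in this order did not. The 2 subunits of the transporter were thus not equally abundant, TAP1 exceeding TAP2 in every library. After knockdown HLA-E stood above TAP1 in all 4 libraries, at means of 21.2 and 15.01 with siEA1-1 and 16.3 and 12.6 with siEA1-2, the reverse of their order in control. Exon length is the union of all annotated exons, which is long for TAP2 and lowers its level per length. On the same strand, HLA-B shares 30.7% of its exon length with the pseudogene DHFRP2, and TAP2 shares 19.5% with ENSG00000250264. Not divided by length, HLA-B stood above HLA-C in control (mean 171 and 130 CPM), so that their order depends on the lengths used.

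**Figure D4:**
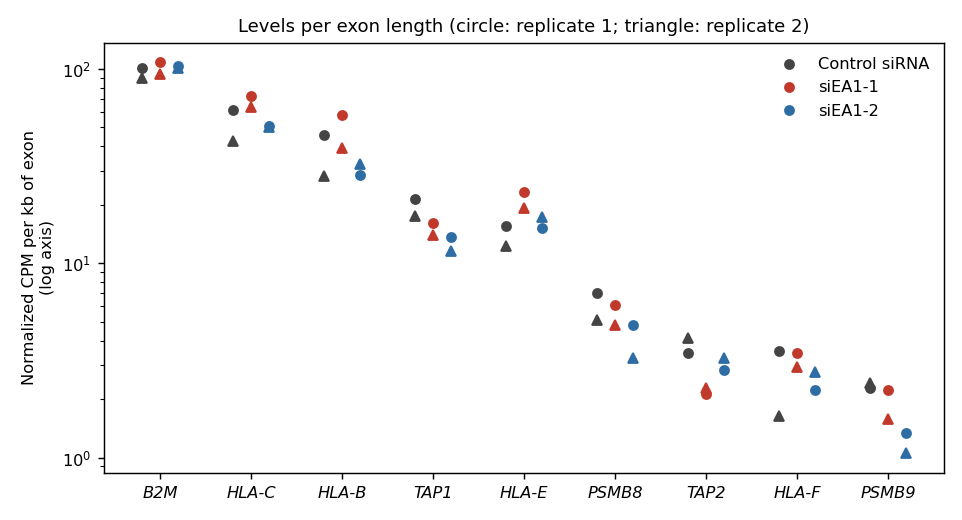
Normalized CPM per kilobase of exon (log axis) of the 9 genes, ordered by their mean in control, in each library (circles for replicate 1, triangles for replicate 2, colour by group). B2M is highest at about 95.2 in control and PSMB9 lowest at 2.36, and after knockdown TAP1 and HLA-E exchange their order.

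The rest of the class I pathway was described by lists of genes. The lists of heavy chains and of regulators were each shortened by 1 gene after their values were seen, so that their counts and medians are those of the shortened lists. Of 6 genes listed as heavy chains and B2M, 2 rose in the averaged contrast and 0 fell, with a median log2FC of 0.16 beside 0.01 over all genes tested, of which 21.5% rose and 22.1% fell. Beside HLA-E the other was HLA-G, a non-classical heavy chain known from the placenta, which rose with each EA1 siRNA (averaged log2FC 2.11, SE 0.28, padj = 8.26e-05) from 21.0 and 14.3 CPM in control to between 52.2 and 107 CPM. The uncertain split of reads among heavy chains applies to HLA-G as well.

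Of 13 genes of peptide transport and loading, 3 rose and 3 fell (median log2FC 0.00), beside 21.5% and 22.1% of all genes tested. The list was thus called about as often as genes at large. Those that rose were CALR (log2FC 0.76, padj = 1.07e-04) and PDIA3 (0.54, padj = 0.00669), which fold and load the heavy chain, and TAPBP (0.49, padj = 0.00147), which encodes tapasin, the bridge between the heavy chain and TAP. Those that fell were TAP1, TAP2 and LNPEP (-0.39, padj = 0.00536), a peptidase known from cross-presentation. PDIA3 did not pass the test with siEA1-1 (padj = 0.148), nor LNPEP with siEA1-2 (padj = 0.212). In the averaged contrast TAP1 and TAP2 were thus lower and TAPBP higher. Of 6 genes of the immunoproteasome and its activator (median log2FC -0.34) 0 rose and 2 fell, beside the same shares of all genes. They were PSME2 (-0.44, padj = 0.0313) and PSME1 (-0.31, padj = 0.0468), the 2 subunits of the PA28 activator. PSME2 did not pass the test with siEA1-1 (padj = 0.149), and PSME1 passed it with neither siRNA (padj = 0.147 with siEA1-1 and 0.0560 with siEA1-2). The 3 constitutive catalytic subunits had a median log2FC of -0.06.

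Of 22 listed regulators of class I transcription 20 were tested, of which 4 rose and 7 fell in the averaged contrast (median log2FC -0.16). Among all genes tested, 21.5% rose and 22.1% fell. NLRC5, the class I coactivator, fell with each EA1 siRNA (averaged log2FC -0.95, SE 0.18, padj = 0.00122) from 16.8 and 19.7 CPM in control to between 7.86 and 10.7 CPM. IRF7 (-1.63, padj = 1.00e-04), IRF9 (-0.70, padj = 0.0366), NFYB (-0.55, padj = 0.00613), NFYC (-0.42, padj = 0.00294) and CREM (-3.15, padj = 1.13e-08), a relative of ATF1, also fell. ATF1 is counted among those that fell, but its counts take in the fusion that the siRNAs target. Its fall therefore says nothing of the unrearranged gene as a regulator. Those that rose were CREB1 (1.31, padj = 1.27e-06), another relative of ATF1, STAT2 (0.89, padj = 1.11e-05), NFKB1 (0.60, padj = 6.61e-04) and RFX5 (0.36, padj = 0.0219). IRF9 did not pass the test with siEA1-1 (padj = 0.153), nor RFX5 with siEA1-2 (padj = 0.0818). IRF1 had 15 and 8 counts in control, 9 and 4 with siEA1-1 and 0 and 2 with siEA1-2 and was too low to be tested.

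Of 43 listed symbols of interferon-stimulated genes, of which DDX58 and RIGI name the same gene, 35 were tested. In the averaged contrast 24 of these fell and 2 rose, with a median log2FC of -0.74, while 22.1% of all genes tested fell and 21.5% rose. ISG15 (-2.90, padj = 0.00375, with 46 and 18 counts in control and 1 to 11 after knockdown), OAS2 (-2.54, padj = 9.39e-06), RSAD2 (-2.53, padj = 9.79e-04) and MX2 (-2.49, padj = 1.23e-05) fell the furthest, while GBP1 (1.46, padj = 0.00396) and GBP2 (1.21, padj = 0.0495) rose. GBP2 did not pass the test with siEA1-1 (padj = 0.218). The summed level of the interferon-stimulated genes counted was 2447 to 2680 CPM in control, 1765 to 1905 with siEA1-1 and 1760 to 1884 with siEA1-2. The 9 genes described here, most of which are themselves known to respond to interferon, had a median log2FC of 0.06 in the same contrast, beside 0.01 for all genes tested. Their signs were split. TAP1, TAP2, PSMB8 and PSMB9 had negative values (-0.65 to -0.37), and the heavy chains among them and B2M positive ones (0.06 to 0.42). Of these values only those of HLA-E, TAP1 and TAP2 passed the test. The same split of signs was seen with siEA1-1, whereas with siEA1-2 HLA-B (-0.27), HLA-C (-0.04) and HLA-F (-0.03) were negative. Whether the interferon-stimulated genes and the class I genes move for a common reason was not tested.

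**Figure D5:**
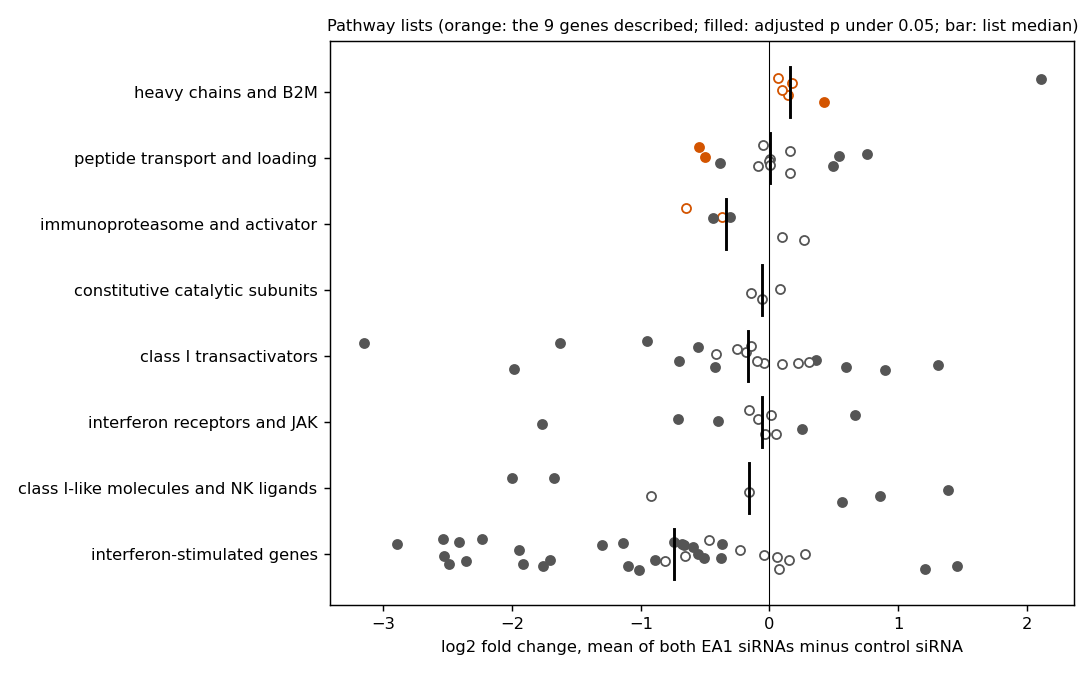
Averaged log2 fold change after EA1 knockdown (x axis) of the genes tested in 8 lists (rows), filled where the adjusted p was under 0.05 and orange for the 9 genes described, with a bar at each list's median. The heavy chains and B2M lie at or right of 0, the immunoproteasome list is left of it except for 2 genes, and most interferon-stimulated genes lie left of it, with a median of -0.74.

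The genes whose pattern over the 6 libraries was most like the mean of the 9 were looked for by the root mean square difference of centred log2 CPM. They were ZNF7 (0.0493), HMGN4 (0.0579), UBTF (0.0585), TTC9C (0.0612) and NME7 (0.0614). The 9 genes themselves differed from their own mean by 0.164 (HLA-C) to 0.426 (TAP2). The 5 genes were picked as the smallest differences among all genes tested, so that their closeness is set by the choice.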

How the data were processed

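Raw counts of 6 libraries were deposited by the authors, who had mapped the reads on hg38 using BWA-MEM and assigned them to genes using featureCounts 1.6.3, without normalization or pooling. The annotation, the use of strand and the treatment of multiply mapped reads are not given in the sources used here, and the submitters' processing notes also name DESeq2 3.11. Groups and replicate numbers were taken from the labels. The deposited counts were filtered by filterByExpr of edgeR 4.0.16 (R 4.3.3; minimum count 10, minimum total 15), normalized by TMM and fitted as 3 groups in a quasi-likelihood model, with Benjamini-Hochberg adjustment over 14571 genes at a threshold of 0.05. The common biological coefficient of variation was 0.109, and log2 CPM used a prior count of 2. Of 18118 identifiers, 18063 were found in GENCODE release 44, which gave positions and exon lengths. Fits were tested on simulated data.

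The genes described and the 12 lists were chosen with earlier results of these data known, and no set test was run. The text names all 9 genes, up to 4 called genes per direction and list by averaged log2FC, NLRC5, IRF1, TAPBP, PSMB10 and ATF1, and the 5 genes nearest to the mean pattern. Others named were chosen after their values were seen. A sum of the heavy chain counts and 1 further regulator, both planned, are not reported here, and the lists of heavy chains and of regulators were each shortened by 1 gene after their values were seen. Deviations of same-numbered replicates from their group means correlated at 0.130, 0.199 and 0.144 over genes in the 3 pairs of groups, so that the numbers may pair the libraries. The main model had no replicate block, and its values take no account of such pairing. The block was run as an alternative and printed where it changed a call. Other alternatives were RLE size factors, no filter, a minimum of 10 counts per library, DESeq2 1.42.0, the 4 knockdown libraries as 1 group, and each library left out.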

Additional observations from a re-analysis of the deposited data

Results flagged for a closer look

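CREM, a member of the CREB and ATF family and no class I gene itself, differed between the EA1 siRNAs by a log2 difference of 0.98 (siEA1-2 minus siEA1-1, SE 0.15, edgeR padj = 0.00937), with 11.0 and 10.2 CPM under siEA1-1 and 21.0 and 20.9 under siEA1-2, beside 126 and 139 in control.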

How the results depend on the processing

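No log2FC of the 9 genes that was called over all 6 libraries by edgeR reversed its sign under any alternative run. HLA-B with siEA1-2, the averaged HLA-C and HLA-F with siEA1-1 were not called there, passed the test without 1 control library and had the other sign without the other. TAP1 with siEA1-2 and TAP2 with siEA1-1 were called in every alternative run, while the other calls were lost in at least 1. The replicate block raised the genes called with siEA1-1 from 3 to 5 and between the siRNAs from 0 to 2, with 44.5% and 5.85% of all genes called, and made PSMB8 with siEA1-2 and the averaged PSMB9 pass the test. It changed no other call. DESeq2 called 1 gene with siEA1-2 over all 6 libraries, beside 26.5% of all genes with an adjusted p, and 1 over the 4 compared, beside 24.7%. Between the siRNAs it called 1 over the 4 compared, beside 3.8%. With each library left out in turn, between 1 and 5 of the 9 genes were called with siEA1-1, 1 to 3 with siEA1-2, 1 to 5 on average and 0 between the siRNAs, while the share of all genes called ranged from 26.4% to 41.9%, 24.5% to 34.6%, 29.9% to 44.01% and 0.212% to 5.11%. The difference in the share of immunoproteasome subunits, averaged knockdown minus control, was -1.68 percentage points and ranged from -2.63 to -1.003. Of the values of single genes with a library left out, 193 stayed on their side of the threshold, 12 lost and 11 gained a call, and under other alternatives these numbers were 197, 6 and 8, beside 5 to which DESeq2 gave no adjusted p, with the cause not tested. With 2 libraries a group, a lone library was taken to vary like the others. Depth limits PSMB9 most, at 25 to 63 counts per library.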

Other observations

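Molecules related to class I moved in both directions after EA1 knockdown. Of 12 listed class I-like molecules and ligands of natural killer cells 7 were tested, of which 3 rose and 2 fell in the averaged contrast (median log2FC -0.16). Of all genes tested, 21.5% rose and 22.1% fell. MR1, which presents vitamin metabolites to mucosal T cells, rose (log2FC 1.38, padj = 0.00405), as did HFE (0.86, padj = 0.00349), a regulator of iron uptake, and FCGRT (0.56, padj = 0.00658), the receptor that recycles IgG. MICB, a stress ligand of the NKG2D receptor, fell (-1.68, padj = 3.08e-05) from 29.3 and 33.8 CPM in control to between 6.76 and 11.5 CPM. ULBP2, another NKG2D ligand, fell as well (-2.002, padj = 0.0299), with 10 and 15 counts in control and 1 to 6 counts after knockdown. ULBP2 did not pass the test with siEA1-2 (padj = 0.137). The related MICA did not pass the test (-0.16, padj = 0.375).

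Of 13 listed genes of MHC class II presentation 5 were counted and 4 tested, of which 1 rose and 0 fell (median log2FC 0.54). It was CIITA, the class II coactivator and a relative of NLRC5, with 2 and 5 counts in control, 16 and 20 with siEA1-1 and 73 and 41 with siEA1-2 (log2FC 3.34, padj = 6.88e-04). Its targets HLA-DRA and CD74 were not analysed here. Of 10 listed interferon receptors, kinases and their inhibitors 2 rose and 3 fell (median log2FC -0.06). Those that rose were SOCS1 (0.66, padj = 0.0204) and JAK1 (0.25, padj = 0.0289), and those that fell were SOCS3 (-1.77, padj = 8.65e-05), IFNAR2 (-0.71, padj = 0.00564) and IFNGR1 (-0.40, padj = 0.0317). SOCS1 (padj = 0.0541) and IFNGR1 (padj = 0.341) did not pass the test with siEA1-2. JAK1 passed it with neither siRNA (padj = 0.0580 with siEA1-1 and 0.0558 with siEA1-2). Of all genes tested, 21.5% rose and 22.1% fell in the averaged contrast. No relation of these lists to the class I genes was tested.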
